A study of Mus musculus with 31 samples.

Results

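Hotspots private to inbred CAST are places on chromosomes 1 to 19 where the CAST strain (CAST/EiJ) formed meiotic DNA double-strand breaks and where no list from another inbred strain or from the Prdm9 knockout placed a hotspot centre within 400 bp. The rule found 12122 such hotspots among the 14282 autosomal hotspots of CAST (84.9%), out of 414683 hotspots in the 26 lists of the series. The question followed here is what becomes of them in hybrids: in which F1 crosses they reappear and how strong they are there. The 7 lists that the rule used give descriptions only, and tests were confined to the F1 lists, which it did not use, although it did use the inbred parents of every cross.

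Breaks were mapped in frozen testis by DMC1 SSDS, which pulls down the recombinase DMC1 and sequences the single-stranded DNA bound to it. Each of the 26 genotypes has 1 library: 19 F1 crosses, 6 inbred strains and a Prdm9 knockout, and 5 input samples without a hotspot list were not used. The crosses with a CAST parent were B6fXCASTm, C3HfXCASTm, CASTfXB6m, CASTfXMOLm and PWDfXCASTm, where f marks the mother and m the father. The crosses without CAST were 5 with a PWD parent (B6fXPWDm, PWDfX13Rm, PWDfXB6m, PWDfXC3Hm and PWDfXMOLm), 4 with MOL but not PWD (B6fXMOLm, C3HfXMOLm, MOLfX13Rm and MOLfXB6m) and 5 among B6, C3H and 13R (13RfXB6m, B6fX13Rm, B6fXC3Hm, C3HfX13Rm and C3HfXB6m). B6 is C57Bl/6J, C3H is C3H/HeJ, 13R is B10.F-H2pb1/(13R)J, MOL is MOLF/EiJ, PWD is PWD/PhJ, and the knockout is B6;129P2-Prdm9<tm1Ymat>/J (Prdm9-/-). The sources used here give neither the age of the mice nor whether animals were pooled.

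PRDM9 is a zinc-finger protein and histone methyltransferase of early meiosis that binds DNA and marks the chromatin where breaks will form. Its zinc-finger array varies between mouse strains, and alleles with different arrays direct breaks to different places. After a break, the ends are resected to single strands on which DMC1 assembles, and those strands search the homologous chromosome for repair.

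No genome of the files' build was used, so the reference sequence at hotspot centres can be shown only where a centre fell in the promoter windows of a RefSeq table, which run from 250 bases before to 50 after a gene's start. Among 32851 windows of 27025 genes, 30 members (0.247%) had their centre in a window. Of these 30, 17 were present in all 5 crosses with a CAST parent and 8 in none. Of all autosomal CAST hotspots 46.9% were in all 5 and 21.5% in none. The 250 bases before the start are given for 4 of the 30, chosen to show the range from all 5 crosses to none. The first is the strongest of the 30 and the other 3 were chosen after their values were seen: the second was present in all 5 crosses, the third in 1 and the fourth in none. Letters are RefSeq sequence of GRCm38.p6, the reference mouse assembly and not the CAST genome, read 5′ to 3′ on the gene's strand, with the 20 bases around the hotspot centre in capitals.
Gm52508: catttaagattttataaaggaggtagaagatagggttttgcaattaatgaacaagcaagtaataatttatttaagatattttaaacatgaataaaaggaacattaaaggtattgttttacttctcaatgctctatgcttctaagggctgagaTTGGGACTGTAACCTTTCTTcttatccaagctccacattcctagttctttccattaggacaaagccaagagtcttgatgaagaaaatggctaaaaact
Cdhr2: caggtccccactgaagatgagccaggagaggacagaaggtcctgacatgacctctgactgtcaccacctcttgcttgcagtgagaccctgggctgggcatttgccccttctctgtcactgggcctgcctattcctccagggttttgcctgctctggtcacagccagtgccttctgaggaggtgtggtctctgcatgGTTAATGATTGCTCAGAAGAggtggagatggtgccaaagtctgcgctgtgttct
Krtap6-5: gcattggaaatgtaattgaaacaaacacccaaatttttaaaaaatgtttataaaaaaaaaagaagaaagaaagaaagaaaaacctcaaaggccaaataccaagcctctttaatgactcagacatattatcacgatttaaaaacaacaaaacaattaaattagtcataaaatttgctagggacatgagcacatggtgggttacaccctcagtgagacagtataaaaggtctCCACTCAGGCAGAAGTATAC
Gm39888: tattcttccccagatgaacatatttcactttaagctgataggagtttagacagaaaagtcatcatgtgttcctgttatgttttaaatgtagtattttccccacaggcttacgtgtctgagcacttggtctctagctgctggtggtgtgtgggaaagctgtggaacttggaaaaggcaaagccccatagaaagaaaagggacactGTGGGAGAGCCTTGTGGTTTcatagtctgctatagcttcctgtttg
Gm52508, a long non-coding RNA gene, has its window at chr2:44328801-44329050 on the minus strand, inside the span of Arhgap15. The hotspot there stood at the 94.5, 98.0, 97.9, 97.1 and 98.2 strength percentiles of the crosses, in the order listed above, and at 99.7 in inbred CAST. The percentile is the share of autosomal hotspots of the same list that were weaker. Cdhr2 encodes a cadherin-related protein of the epithelial brush border, and its window is at chr13:54701213-54701462 on the plus strand. Its hotspot stood at 67.3, 68.6, 67.0, 64.0 and 73.7 in the crosses and at 79.2 in inbred CAST. Krtap6-5, a keratin-associated protein gene, has its window at chr16:89047900-89048149 on the minus strand. Of the 5 crosses only PWDfXCASTm held its hotspot, at percentile 17.7, and it stood at 5.55 in inbred CAST. Gm39888, a long non-coding RNA gene inside the span of Ldlrad3, with its window on the plus strand at chr2:101991680-101991929, had no hotspot in the 5 crosses and 1 at percentile 13.5 in inbred CAST. The 30 members fell in 32 windows, with a median of 49.4% G and C, against 52.4% over all windows, and a median of 3 CpG (from 0 to 8), against 6. Of the 32, 6 held 0 or 1 CpG, the 4 printed among them.

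The members made up most of the CAST map but were on the weaker side of it. They held 81.5% of its summed autosomal strength, and their median percentile was 48.3, against 60.4 for the other 2160 CAST hotspots. Their median width was 1848 bp, against 2116 bp. The hotspots that the rule removed were matched mostly by PWD, which had a centre at 1603 CAST hotspots (11.2%), then by MOL at 380 (2.66%), B6 at 119, the knockout at 114, C3H at 103 and 13R at 83 (0.581%). The same rule left 95.9% of autosomal hotspots private in 13R, 83.8% in MOL, 73.4% in PWD, 71.5% in B6 and 64.2% in C3H. Most members lay far from the limit, with a median of 7699.5 bp (quartiles 3242 and 16163) to the nearest centre in another of these lists, although 656 (5.41%) had one under 1000 bp away. The 119 members just inside the limit, at 400 to 500 bp, had a median percentile of 48.8, and the 159 CAST hotspots just outside it, at 300 to 400 bp, had 54.6. Presence in the 5 crosses with a CAST parent ran from 53.8% to 71.4% for those just inside and from 56.0% to 73.0% for those just outside.

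The CAST list itself carries a doubt. According to the series text, the accession that now carries the CAST label was taken out as a mislabelled cross between CAST and 13R. Values here assume that the present label is right. The list matched 13R at 0.581% of its hotspots, the lowest of the 6 lists compared. Each of the 5 crosses labelled with a CAST parent held 97.9% to 98.8% of the strongest 10% of the members. That presence cannot tell CAST from a cross of CAST with 13R, because the rule kept no member near a 13R hotspot. Whether the label is right was not tested.

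Between 52.3% and 70.1% of the members were present in the hybrids with a CAST parent, and few in the rest. The rule had taken out every CAST hotspot near a hotspot of B6, C3H, 13R, MOL or PWD, the parents of the crosses without CAST, so low presence there is largely set by the rule. A member was called present where the centre of a cross hotspot lay under 400 bp away, and beside each share stands the same share over all 14282 autosomal CAST hotspots, members included. B6fXCASTm held 6924 members, 57.1% (95% exact binomial interval 56.2 to 58.0), against 59% over all. In C3HfXCASTm 6343 were present, 52.3% (51.4 to 53.2), against 54.3%. For CASTfXB6m the count was 7301, 60.2% (59.4 to 61.1), against 62%. Each of these 3 crosses, with B6 or C3H as the other parent, thus held over 50% of the members. CASTfXMOLm held 6753 members, 55.7% (54.8 to 56.6), against 58.8%. The highest share was that of PWDfXCASTm, with 8493 members, 70.1% (69.2 to 70.9), against 73.2%. PWDfXCASTm also had the longest list of the 5, 18270 autosomal hotspots, and C3HfXCASTm, with the lowest share, the shortest, 13024. Limited to the strongest 9000 hotspots of each cross, presence was 34.5% in B6fXCASTm, 35.1% in C3HfXCASTm, 35.9% in CASTfXB6m, 32.5% in CASTfXMOLm and 34.6% in PWDfXCASTm, so that the lead of PWDfXCASTm was not seen at equal list length.

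In crosses of PWD without CAST the members were rare. B6fXPWDm held 320 (2.64%, against 8.33% of all autosomal CAST hotspots). PWDfX13Rm held 231 (1.91%, against 5.73%). PWDfXB6m held 351 (2.90%, against 10%). Each of these 3 shares was well below that over all CAST hotspots. PWDfXC3Hm had 336 members present (2.77%, against 9.56%). PWDfXMOLm had 218 (1.798%, against 8.37%). In all 5 the share over all hotspots includes the hotspots that inbred CAST and PWD have in common, which the rule took out of the members.

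Crosses of MOL without CAST or PWD held fewer still. There were 35 members in B6fXMOLm (0.289%, against 1.72%). There were 52 in C3HfXMOLm (0.429%, against 2.18%). MOLfX13Rm and MOLfXB6m had 46 members each (0.379%), against 1.88% and 2.21% over all CAST hotspots. The median offset between matched centres was 43 to 52 bp in the crosses with a CAST parent, 62 to 73 bp in the PWD crosses without CAST and 80 to 136 bp in these 4.

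Among B6, C3H and 13R the members were close to absent. 13RfXB6m held 4 (0.0330%, against 0.483%) and B6fX13Rm held 1 (0.00825%, against 0.378%). B6fXC3Hm held 6 (0.0495%, against 0.609%). C3HfX13Rm held 13 (0.107%, against 0.616%) and C3HfXB6m held 9 (0.0742%, against 0.812%). The few matches here were loose, with a median offset of 288 to 358 bp, close to the 400 bp limit.

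**Figure D1:**
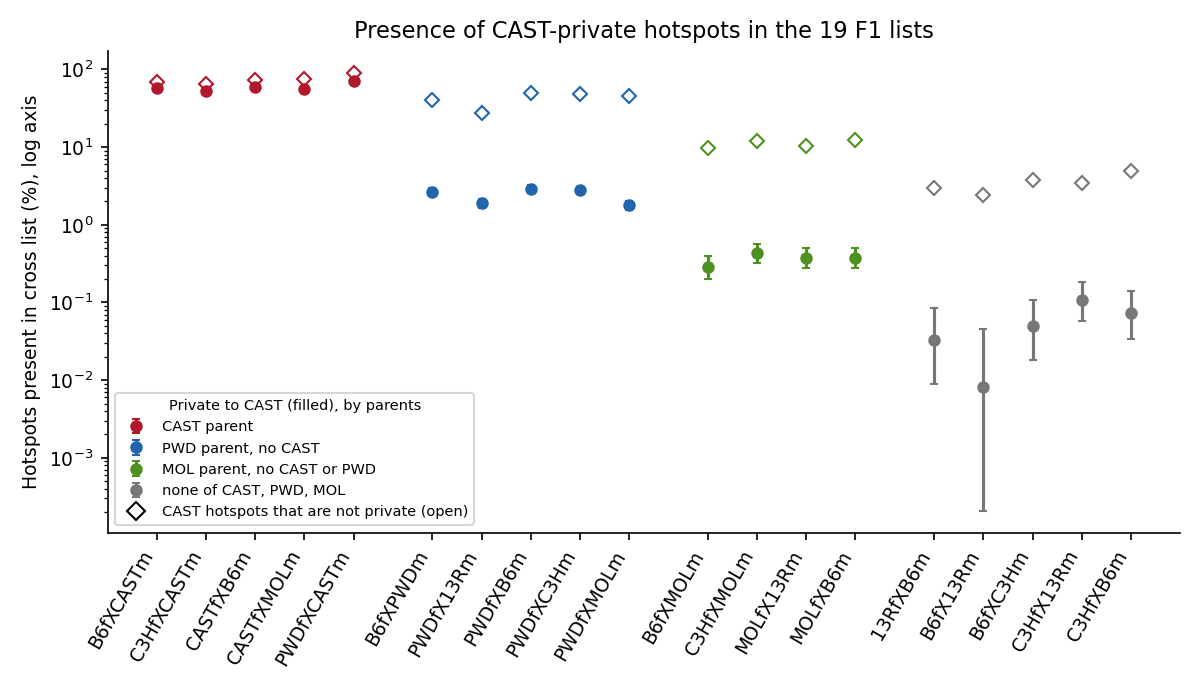
Share of hotspots present in each of the 19 F1 lists, in percent on a log axis. Filled points are the 12122 members with 95% exact binomial intervals, and open diamonds are the 2160 other autosomal CAST hotspots; members stood at 52.3% to 70.1% with a CAST parent and at or below 2.90% in every cross without one.

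Over crosses, a mean of 59.1% ± 6.76 of members was present with a CAST parent (SD, n = 5 crosses) and 0.983% ± 1.14 without (n = 14), a difference of 58.1 percentage points. The two-sided exact permutation test gave p = 8.6e-05, the smallest that the 11628 assignments of crosses allow, but since the rule lowers presence in the crosses without CAST it is not independent of the choice of members. Over all 14282 autosomal CAST hotspots, to which that filter was not applied, mean presence was 61.5% ± 7.13 with a CAST parent (SD, n = 5) and 3.78% ± 3.75 without (n = 14), a difference of 57.7 points (exact permutation p = 8.6e-05, the smallest possible). The size of the difference depended on which hotspots were counted: it was 33.8 points when each cross list was limited to its strongest 9000 hotspots and 90.03 points for the stronger 50% of members. Many crosses have a parent in common and so are not independent, and p-values over libraries measure only the spread between these libraries.

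Members held a large part of the break map of each hybrid with CAST. They were 48.1% of the autosomal list in B6fXCASTm, 48.7% in C3HfXCASTm, 49.98% in CASTfXB6m, 43.5% in CASTfXMOLm and 46.5% in PWDfXCASTm. Of summed strength they held 41.2%, 45.4%, 42.7%, 40.0% and 44.6% in these crosses. The mean was 42.8% ± 2.24 (SD, n = 5), against 1.05% ± 1.35 in crosses without CAST (n = 14), a difference of 41.8 points (two-sided exact permutation p = 8.6e-05, the smallest possible, with the same dependence on the rule). All autosomal CAST hotspots together held 56.1% ± 3.53 and 4.23% ± 4.33 (exact permutation p = 8.6e-05). In both crosses of B6 with CAST 1 hotspot that is no member held 2.41% (B6fXCASTm) and 1.997% (CASTfXB6m) of strength, and without it the members held 42.3% and 43.6%. Among the strongest 10% of each cross list, members made up 33.4% to 39.5%, less than their share of the whole list.

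The strength of a member in inbred CAST went closely with whether it was seen again. The members were divided into 10 bins by their CAST strength, with 1212 or 1213 in each and the strongest in bin 1. Over the 5 crosses with a CAST parent, mean presence was 98.3% ± 0.371 in bin 1, 98.6% ± 0.125 in bin 2 and 97.2% ± 1.15 in bin 3 (SD, n = 5). It was 88.5% ± 5.52 in bin 4, 74.1% ± 10.5 in bin 5, 52.2% ± 14.7 in bin 6 and 33.8% ± 13.1 in bin 7. In bins 8, 9 and 10 it was 22.7% ± 10.7, 14.2% ± 7.87 and 11.3% ± 5.41. The crosses hardly differed at the top and spread most in the middle of the range, where the SD was widest. The strongest bin exceeded the weakest by 87.0 ± 5.70 points, by 77.1 to 91.7 in the separate crosses and in 5 of 5 crosses (two-sided exact sign-flip permutation p = 0.063, the smallest that 5 crosses allow, so the test could not pass 0.05). Within the stronger 50% of members, divided again into 10 bins, the difference was 29.1 points.

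In the weakest bin the crosses with a CAST parent did differ in level. Presence there was 9.08% in B6fXCASTm, 7.18% in C3HfXCASTm, 10.8% in CASTfXB6m, 8.75% in CASTfXMOLm and 20.7% in PWDfXCASTm, the cross with the longest list. Hotspot width went with strength in the CAST list: the median was 3312 bp in the strongest bin and 1131 bp in the weakest. The agreement of centres also went with it, at a median offset of 23 to 34 bp in the strongest bin and 67 to 107 bp in the weakest.

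**Figure D2:**
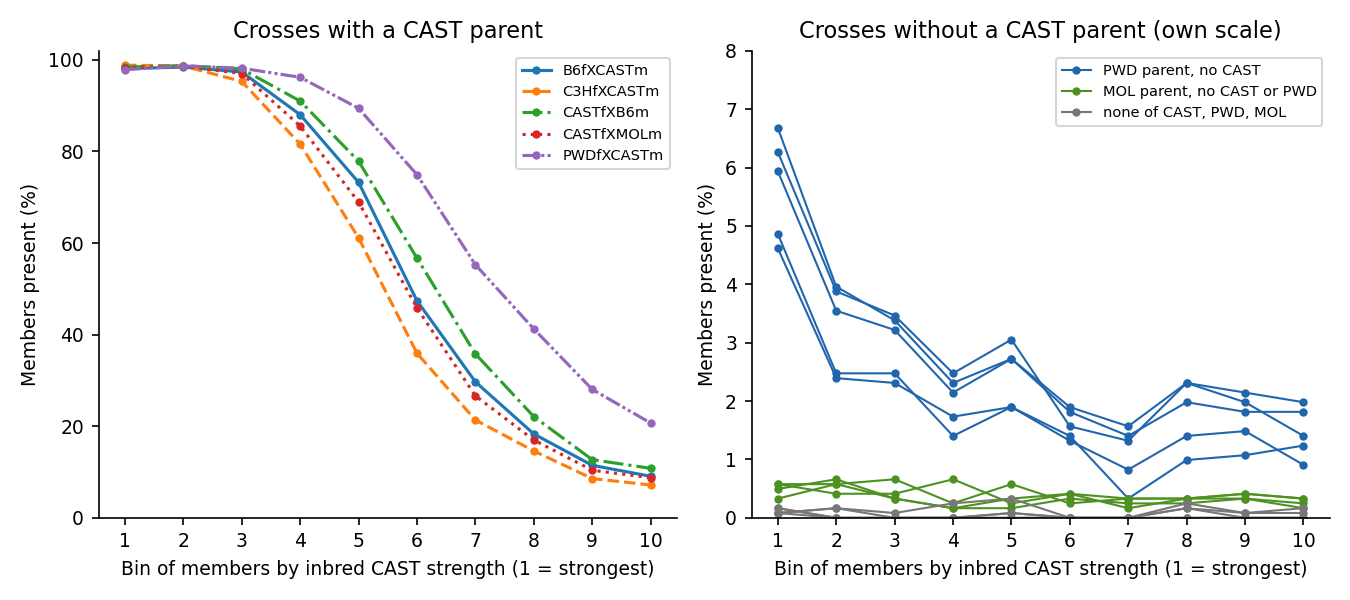
Share of members present (percent) by bin of inbred CAST strength, 1 line per cross, with CAST crosses on the left and the others on the right on their own scale. With a CAST parent presence runs from 98.3% in the strongest bin to 11.3% in the weakest; PWD crosses without CAST average 5.67% in the strongest bin.

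Crosses without CAST showed a shallow version of the same gradient, mostly in the PWD crosses. The strongest bin exceeded the weakest by 1.59 ± 2.05 points, in 13 of 14 crosses (two-sided permutation test with sign flips, 100000 resamples, p = 0.00029). With reciprocal crosses averaged it was 1.76 points (exact sign-flip permutation p = 0.00195, n = 10). The rule took out CAST hotspots near those of the inbred parents of these crosses, so neither p is independent of the choice of members. In the 5 PWD crosses mean presence was 5.67% ± 0.894 in the strongest bin and 1.47% ± 0.434 in the weakest, with the lowest value, 1.09%, in bin 7. In the other 9 crosses it was 0.284% in the strongest bin and 0.147% in the weakest. Counts there were small. They were 1 member against 0 in 13RfXB6m, B6fX13Rm and C3HfX13Rm, and 2 against 1 in B6fXC3Hm. In the 4 MOL crosses without PWD they were 4 to 7 against 2 to 4. With any overlap of intervals counted as presence, the difference over the 14 crosses was 3.53 points (sign-flip permutation p = 0.00018), and p lay between 0.00018 and 0.0454 over the settings tried. The single cross without a positive difference was C3HfXB6m, with 2 members in each of these bins.

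Strength within the cross went with strength in inbred CAST, with a median lower at each step from bin 1 to bin 7 in all 5 crosses. Over members present, Spearman's rank correlation between the score in the cross and that in inbred CAST was 0.662 in B6fXCASTm, 0.614 in C3HfXCASTm, 0.664 in CASTfXB6m, 0.711 in CASTfXMOLm and 0.706 in PWDfXCASTm. These are descriptions over 6343 to 8493 places that share their libraries. The strongest bin had a median cross percentile of 81.6, 81.2, 82.0, 84.8 and 86.9 in the same order. The lowest median was in the weakest bin in none of the 5 crosses. It was in bin 7 of B6fXCASTm (16.3, against 32.9 in bin 10), C3HfXCASTm (18.6, against 34.7) and CASTfXMOLm (18.3, against 21.2), in bin 8 of CASTfXB6m (17.8, against 23.4) and in bin 9 of PWDfXCASTm (19.2, against 19.5). The medians of the weak bins cover only the members that the cross list contained.

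**Figure D3:**
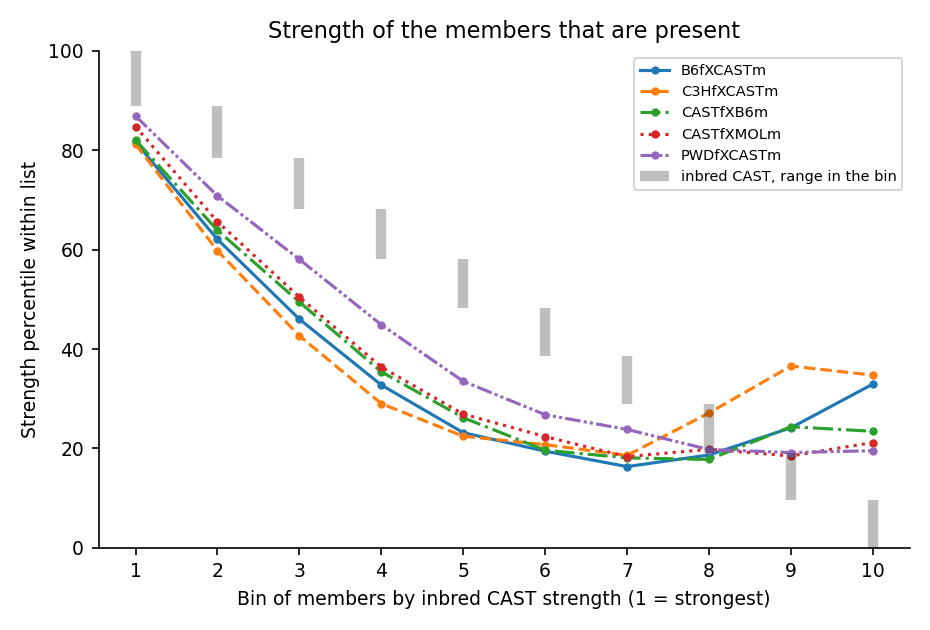
Median strength percentile, within each cross list, of the members present, by bin of inbred CAST strength, for the 5 crosses with a CAST parent. Grey bars give the range that the same bin spans in inbred CAST; cross medians lie below it in the strong bins (81.2 to 86.9 in bin 1) and above it in bin 10.

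Most members that held on in all crosses stood lower within the hybrid than in inbred CAST. For the 5418 members present in all 5, the mean percentile over the crosses was lower than in inbred CAST for 4839 and higher for 579, with a median change of -18.0 percentile points. By cross the median change was -20.2 in B6fXCASTm, -22.4 in C3HfXCASTm, -17.8 in CASTfXB6m, -17.0 in CASTfXMOLm and -10.9 in PWDfXCASTm. Percentiles are ranks within lists that also contain the hotspots of the other parent, and a member has to be among the hotspots called in a cross to enter. The 5418 were high in inbred CAST, at a median percentile of 74.9. The same change is not given here over all autosomal CAST hotspots, so it is not read as particular to the members. As a group the members had a median percentile of 48.3 ± 1.57 in crosses with a CAST parent (SD, n = 5) and 49.4 ± 19.95 in crosses without (n = 14), a difference of -1.15 (two-sided exact permutation p = 0.8996). That comparison rests on 1 to 13 members in each cross of B6, C3H and 13R with one another. By the same exact permutation test it was past the threshold at -12.2 (p = 8.6e-05) with any overlap of intervals, at -10.7 (p = 0.00679) with reciprocal overlap of 50% and at -9.55 (p = 0.0184) with the strongest 9000 hotspots of each cross, and turned to 6.44 (p = 0.520) in the stronger 50% of members. Over the remaining settings it lay between -10.9 and -0.519, with exact permutation p from 0.160 to 0.948.

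Members were most often present in all 5 crosses with a CAST parent or in none. Of the 12122, 5418 (44.7%, against 46.9% of all autosomal CAST hotspots) were in all 5, 989 in 4, 665 in 3, 697 in 2, 1379 (11.4%, against 11.8%) in 1 and 2974 (24.5%, against 21.5%) in none. These shares were near those over all CAST hotspots, of which the members are the greater part. Their median CAST percentiles were 74.9 for those in all 5 and 16.9 for those in none. In the strongest bin 1171 of 1213 members (96.5%) were in all 5 crosses and 4 in none. In the weakest bin 32 were in all 5 and 877 (72.4%) in none.

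Which cross a member was seen in, when it was seen in a single cross, was uneven. PWDfXCASTm alone held 1042 of the 1379 such members, CASTfXMOLm 122, CASTfXB6m 118, C3HfXCASTm 49 and B6fXCASTm 48. Of the 989 members missing from a single cross, 425 were missing from C3HfXCASTm, 381 from CASTfXMOLm, 86 from B6fXCASTm, 71 from PWDfXCASTm and 26 from CASTfXB6m. PWDfXCASTm, the longest list, thus held most of the members seen in 1 cross, while C3HfXCASTm and CASTfXMOLm accounted for most of those missing from 1.

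In the strongest bin most members called absent were overlapped by a cross hotspot whose centre lay farther away. There 23 members had no centre within 400 bp in B6fXCASTm, yet the interval of a cross hotspot overlapped 21 of them. The counts were 13 of 14 in C3HfXCASTm, 18 of 19 in CASTfXB6m, 19 of 21 in CASTfXMOLm and 25 of 26 in PWDfXCASTm. In bin 3 the counts were lower in most crosses, at 12 of 32 in B6fXCASTm, 19 of 57 in C3HfXCASTm, 12 of 24 in CASTfXB6m, 13 of 36 in CASTfXMOLm and 18 of 22 in PWDfXCASTm. In the weakest bin an interval overlapped 17 of 1102 absent members in B6fXCASTm, 20 of 1125 in C3HfXCASTm, 13 of 1081 in CASTfXB6m, 24 of 1106 in CASTfXMOLm and 29 of 961 in PWDfXCASTm. Nearly all weak members that were absent thus had no called hotspot at their place, and whether breaks occur there below the calling limit was not detectable from these lists.

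The 2 directions of the cross with B6 held largely the same members. CASTfXB6m and B6fXCASTm shared 6669 members, 91.3% of those in CASTfXB6m and 96.3% of those in B6fXCASTm, while 632 were in CASTfXB6m only, 255 in B6fXCASTm only and 4566 in neither. Across the shared members Spearman's rank correlation between the percentiles in the 2 crosses was 0.955, against 0.630 between CASTfXB6m and inbred CAST over the same members.

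The rule that finds members of CAST also finds private hotspots of the other parent, and the hybrids contained far fewer of those. CAST-private hotspots were present at 57.1% in B6fXCASTm and B6-private ones at 14.1%. In C3HfXCASTm the shares were 52.3% for CAST and 16.8% for C3H, and in CASTfXB6m 60.2% for CAST and 13.0% for B6. In CASTfXMOLm they were 55.7% for CAST and 27.3% for MOL, and in PWDfXCASTm 70.1% for CAST and 28.3% for PWD. The difference averaged 39.2 ± 7.36 points, from 28.4 to 47.2, with CAST higher in 5 of 5 crosses (two-sided exact sign-flip permutation p = 0.063, the smallest possible). It was 24.1 points with the strongest 9000 hotspots of each cross.

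At the strong end CAST-private hotspots also had the higher presence in each of these crosses. In the strongest bin it was 97.9% to 98.8% for CAST, while in the strongest bin of the other parent's private hotspots it was 56.7% for B6 in B6fXCASTm, 74.1% for C3H, 52.3% for B6 in CASTfXB6m, 94.2% for MOL and 79.3% for PWD. MOL came closest to CAST by this measure. Where present, CAST-private hotspots had median percentiles of 46.9, 47.1, 47.3, 49.7 and 50.2 in the order of crosses used above, and the private hotspots of the other parent 46.3, 45.1, 46.9, 47.0 and 37.96. The difference in the median averaged 3.61 ± 4.93, from 0.414 to 12.3, positive in 5 of 5 crosses (exact sign-flip permutation p = 0.063), and its sign turned to -9.04 with reciprocal overlap of 50% and to -0.581 with the strongest 9000 hotspots. It was 1.45 without PWDfXCASTm, 1.97 with any overlap and 11.5 in the stronger 50% of members.

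**Figure D4:**
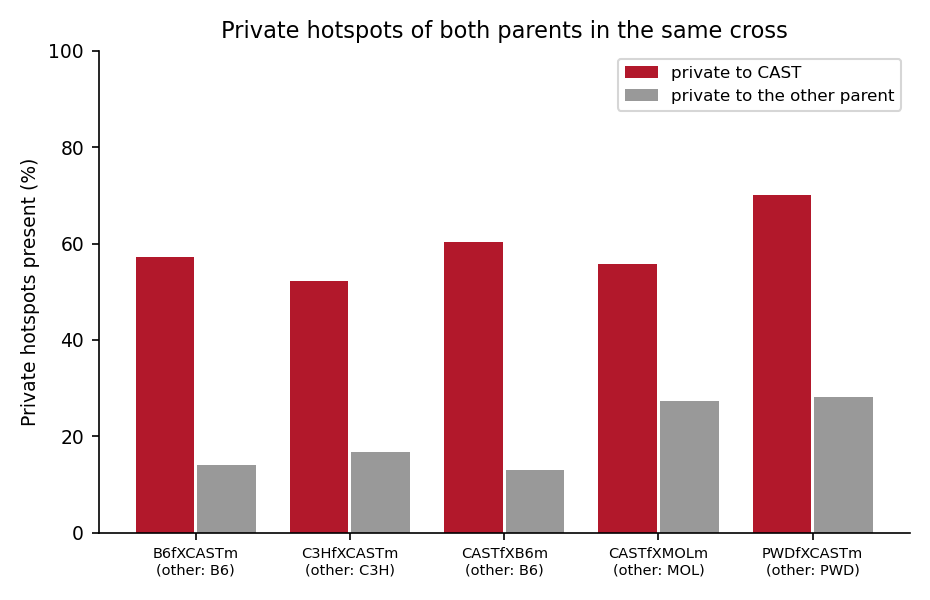
Share of private hotspots present (percent) in each cross with a CAST parent, for CAST (red, left bar) and for the other parent named under the cross (grey, right bar). CAST stands at 52.3% to 70.1% and the other parent at 13.0% to 28.3%.

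Private CAST hotspots were present less often than the CAST hotspots that another list matched. Those matched include hotspots that the other parent of a cross also had (PWD matched 1603 and MOL 380). The gap is therefore not independent of the rule. Presence was 57.1% of members and 69.4% of the other CAST hotspots in B6fXCASTm, 52.3% and 65.4% in C3HfXCASTm, 60.2% and 72.2% in CASTfXB6m, 55.7% and 76.3% in CASTfXMOLm, and 70.1% and 91.0% in PWDfXCASTm. The gap averaged -15.8 ± 4.61 points, from -21.0 to -11.9, with members lower in 5 of 5 crosses (exact sign-flip permutation p = 0.063, the smallest possible). The members were also the weaker set in CAST. Among hotspots above the median strength of the CAST list, 5854 members and 1287 others, the gap was -2.84 ± 1.58 points, with members still lower in 5 of 5 crosses (exact sign-flip permutation p = 0.063). Presence there was 88.5% to 96.4% for members and 92.4% to 97.7% for the others, whose median CAST percentiles were 74.0 and 79.2.

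Among crosses without CAST, a PWD parent went with more members. Mean presence was 2.40% ± 0.512 with PWD (SD, n = 5) and 0.194% ± 0.172 without (n = 9), a difference of 2.21 points (two-sided exact permutation p = 0.0005, the smallest of 2002 assignments; adjusted p = 0.0015 by Benjamini-Hochberg over 3 tests). The 2 sets of crosses did not overlap. Nor did they over all autosomal CAST hotspots, with 5.73% to 10% present with PWD and 0.378% to 2.21% without. The rule had taken out CAST hotspots near those of the inbred parents of these crosses, so this p is not independent of the choice of members. With a MOL parent the mean was 0.655% ± 0.641 (n = 5) and without 1.17% ± 1.35 (n = 9), a difference of -0.51 (exact permutation p = 0.424, adjusted 0.518). With a B6 parent it was 0.796% ± 1.23 (n = 8) and without 1.23% ± 1.08 (n = 6), a difference of -0.436 (exact permutation p = 0.518, adjusted 0.518).

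A small group of members recurred in every PWD hybrid without CAST although no hotspot centre of inbred PWD lay within 400 bp. In all, 463 members (3.82%, against 12.8% of all autosomal CAST hotspots) were present in at least 1 of the 5 PWD crosses without CAST, and 121 (0.998%, against 4.21%) in all 5. Recurrence was thus rarer in members than over all CAST hotspots, which include those that inbred PWD shares. For these 121 the nearest inbred PWD hotspot was a median of 52711 bp away, and for 5 it was under 1000 bp. They were strong in CAST, with a median percentile of 71.9 against 48.1 for the other members, and 36 of them (29.8%) were in the strongest bin. Also in a MOL cross without PWD were 2 of them, and 1 was in a cross with neither PWD nor MOL. In the 4 MOL crosses without PWD 0.826% to 1.65% of the 121 were present, against 0.283% to 0.417% of the other members. In 13RfXB6m it was 0.826%, against 0.0250%, and none of the 121 was in the other crosses among B6, C3H and 13R. Each of these shares rests on 1 or 2 of the 121 at most. The group was chosen by its presence in the PWD crosses, so its values there are a description: median percentiles were 87.4 in PWDfXB6m, 85.5 in PWDfXC3Hm, 82.3 in B6fXPWDm, 74.5 in PWDfXMOLm and 60.2 in PWDfX13Rm.

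In crosses with a CAST parent the same 121, a stronger set in CAST than the rest, were present at 81.0% to 97.5%, against 52.0% to 69.8% for the other members. Of them 91 were in all 5 crosses and none was missing from every one. In PWDfXCASTm, which has both parents, 97.5% were present at a median percentile of 87.1, against 49.6 for the other members. Their medians were 73.8 in CASTfXMOLm, 71.8 in CASTfXB6m, 74.1 in B6fXCASTm and 70.8 in C3HfXCASTm. For the 91 in all 5 crosses, the percentile in PWDfXCASTm exceeded the mean of the other 4 by a median of 16.2 points and did so for 67 members (73.6%). For the other 5327 members in all 5 crosses the median was 7.05, higher for 4235 (79.5%). Among the 1136 of these in the strongest bin it was 3.65, higher for 891 (78.4%). The share of members that stood higher in PWDfXCASTm was thus not greater in the group of 121, although the median shift was.

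**Figure D5:**
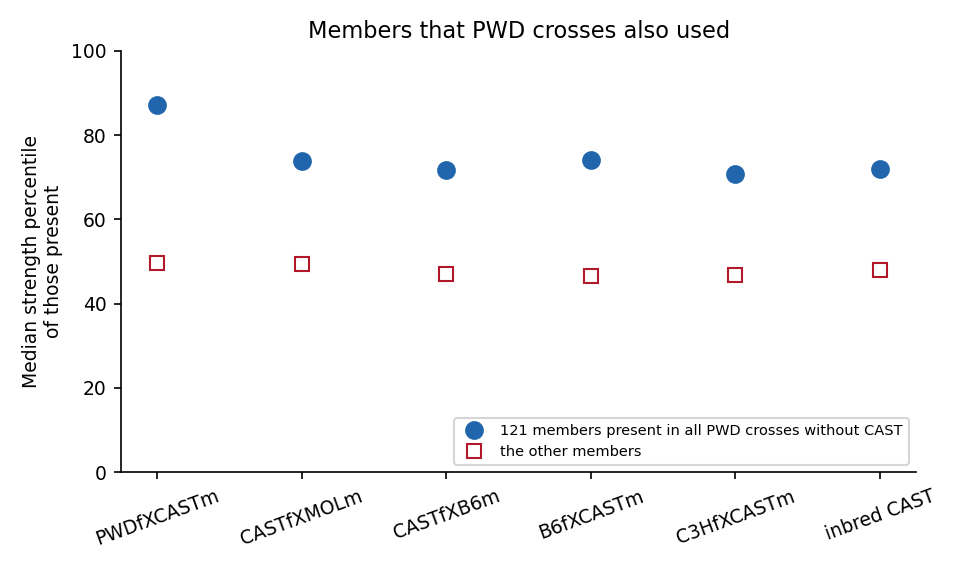
Median strength percentile in the crosses with a CAST parent and in inbred CAST, for the 121 members present in all 5 PWD crosses without CAST (filled) and for the other members (open squares), counting those present in each list. The filled point is 87.1 in PWDfXCASTm and 70.8 to 74.1 in the other crosses, against 71.9 in inbred CAST.

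The 10 strongest members show how closely the top of the CAST map was kept, and where it was not. The first, 23280 bp from Tpd52, lay at chr3:9026456-9030889 and ranked 2, 6, 2, 1 and 2 among autosomal hotspots of B6fXCASTm, C3HfXCASTm, CASTfXB6m, CASTfXMOLm and PWDfXCASTm. The second lay inside Bach2, a transcription factor gene of lymphocytes, at chr4:32571300-32576429, and ranked 7, 4, 7, 2 and 1. It was also present in 4 PWD crosses without CAST, at percentiles of 98.4 in B6fXPWDm, 98.9 in PWDfX13Rm, 97.9 in PWDfXB6m and 98.7 in PWDfXC3Hm. Both were therefore near the top of every list with a CAST parent.

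The next strongest member went against that. It lay inside Cers5, which encodes a ceramide synthase, at chr15:99734993-99736696, and was narrow for its strength at 1704 bp. Of the 5 crosses it was present only in C3HfXCASTm, at rank 2. In the other 4 the nearest hotspot centre was 26264 bp (PWDfXCASTm) to 48191 bp (B6fXCASTm) away, and it was the strongest member absent from each of them. It was present in no cross without CAST.

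The other members of the 10 were present in all 5 crosses with a CAST parent. Plrg1, whose product belongs to the spliceosome, lay 6638 bp from a member that ranked 11, 5, 13, 110 and 115 in the order of crosses used for Tpd52. The member inside Lactb2 ranked 268, 34, 516, 23 and 171, and that near Bmp4, a signalling ligand gene 13712 bp away, ranked 278, 133, 535, 12 and 36. Ranks were thus poorest with B6 for these last 2 members, in both directions of the cross. Ptpro, a receptor tyrosine phosphatase gene, held a member at percentiles of 95.7, 96.9, 95.6, 99.6 and 93.2, the lowest in PWDfXCASTm. The member nearest Zfp608, a zinc-finger gene 436114 bp away on chromosome 18, ranked 149, 127, 156, 39 and 156. Ccnyl1, a cyclin Y-like gene, held a member that ranked 37, 70, 478, 262 and 55, and that was also present in PWDfX13Rm at percentile 84.7 and in PWDfXB6m at 87.2. Auts2, a gene linked to neurodevelopment, held a member that ranked 51, 25, 54, 75 and 300 and was present in all 5 PWD crosses without CAST, from 63.8 in PWDfX13Rm to 87.3 in PWDfXC3Hm.

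Several members stood apart by other rules. A member inside Arfgef1, a guanine nucleotide exchange factor gene, at chr1:10168584-10172157, was the strongest with no centre in any of the 5 crosses, at rank 96 of the CAST list. A cross hotspot overlapped its interval in all 5, with the nearest centre 549 to 1313 bp away. Present in most crosses without CAST was a member inside Ramp1, a co-receptor gene for calcitonin-family peptides, at chr1:91215213-91217560, found in 9 of 14. With a CAST parent its percentile was 96.9, 96.4, 95.7, 75.2 and 52.4, against 78.5 in inbred CAST. Without CAST it was 92.5 to 92.7 in the PWD crosses with B6, 13R and C3H, 8.54 in PWDfXMOLm and 21.0 to 51.3 in the 4 MOL crosses without PWD. The member was thus high with PWD except where MOL or CAST was the other parent.

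Of the 10 members found in 8 crosses without CAST, the 2 strongest in inbred CAST are described. The weaker of them lay inside Pdlim1, a gene for a cytoskeletal PDZ and LIM domain protein, at chr19:40221357-40224880. It stood at percentiles of 95.3 to 98.0 in crosses with a CAST parent, against 94.9 in inbred CAST. Without CAST it stood at 99.9 in B6fXPWDm, 99.6 in PWDfX13Rm, 99.99 in PWDfXB6m and 99.8 in PWDfXC3Hm, and at 50.4 to 75.9 in the 4 MOL crosses without PWD. Its place was therefore among the very strongest of those 4 PWD hybrids. The other, 169106 bp from Phf3, lay at chr1:30631194-30635279 and stood at 97.9 to 99.8 with a CAST parent, 69.8 to 82.7 in the same 4 PWD crosses and 79.9 to 87.3 in the 4 MOL crosses.

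The single largest gain and loss between hybrids and inbred CAST were each seen in all 5 crosses. Ctnnd2, a delta-catenin gene of neurons, held the member with the largest mean gain, at chr15:30326395-30327730. It stood at 96.2, 96.4, 95.3, 93.3 and 94.8 in the crosses, against 5.63 in inbred CAST, a mean change of 89.6 percentile points. The largest mean loss was at a member 34280 bp from Cfap53, a gene for a protein of cilia, on chromosome 18. It stood at 8.17, 7.23, 15.6, 4.95 and 5.24 in the crosses, against 80.2 in inbred CAST, a mean change of -72.0. The inbred CAST values rest on 1 library. Of the 6061 members of the weaker 5 bins, 542 were in all 5 crosses, and 61 of these had a mean cross percentile above 75. Of the 1213 members of the strongest bin, 1171 were in all 5 crosses, and none (0) of these had a mean below 25. A member had to be called in every cross to enter. Few weak members passed that filter and nearly all strong ones did, so these counts are not set against each other.

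Members were found on all 19 autosomes, inside genes in 52.2% of cases and seldom at gene ends. By chromosome there were 310 (chromosome 19) to 946 (chromosome 2), or 4.38 (chromosome 3) to 5.78 (chromosome 11) per Mb. The private share of CAST hotspots ran from 82.4% on chromosome 19 to 88.3% on chromosome 17, and mean presence in crosses with a CAST parent from 54.3% on chromosome 7 to 62.6% on chromosome 19. The centre lay inside a protein-coding gene for 52.2% of members (95% exact interval 51.3 to 53.1), against 55.0% of other CAST hotspots (52.8 to 57.1). Within 1000 bp of a gene end were 3.11% of members (2.81 to 3.43), against 4.31% of other CAST hotspots (3.49 to 5.25). These intervals do not overlap, but the rule put the 114 CAST hotspots matched by the knockout list among the others. The gap is therefore not independent of the rule. The share at gene ends was 3.14% in the B6 list and 33.0% in the knockout list. The members' share at gene ends was thus near that of the B6 list and far below that of the knockout list.

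Strong members differed from weak ones in place as well as in width. In the strongest bin 60.3% lay inside a protein-coding gene (57.4 to 63.0), against 49.6% in the weakest (46.7 to 52.4). The first 20% of the chromosome, counted from the start of its coordinates, held 23.7% of the strongest bin and 15.8% of the weakest. In the last 20% the order was the other way, with 19.3% of the strongest bin and 23.2% of the weakest. These are shares over places in 1 library, given without a test.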

How the data were processed

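Single-stranded DNA bound by DMC1 was sequenced from mouse testis, 1 library per genotype. Each deposited list holds the position of every hotspot and a score, the authors' own measure of its strength. The submitters' processing notes name mm10, CASAVA 1.8 and MACS2 2.0.10. The sources used here do not say how the score was normalized, which filters were used or whether animals were pooled. Because 104 scores lie below 0, scores were compared inside a list only, as ranks, percentiles or shares of summed strength. Read depth is unknown, so list length is not read as a number of breaks.

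Lists were grouped by the parental strains in the labels. A hotspot was matched when centres lay under 400 bp apart, on the 19 autosomes. Differences between sets of crosses were tested with two-sided exact permutation tests over crosses, and differences within crosses with sign-flip permutation tests (exact, or 100000 resamples for 14 crosses), at a threshold of 0.05, with Benjamini-Hochberg adjustment over the 3 parent tests. The matching and test code was tested on simulated data. Clopper-Pearson exact intervals at 95% cover counting error only. Alternatives were matching at 200 or 1000 bp, any overlap, reciprocal overlap of 50%, the strongest 9000 hotspots of each cross, members at 1000 bp or more from other lists, the stronger 50% of members, averaged reciprocal crosses, leaving out crosses with 13R, leaving out each cross in turn and, added after seeing the data, leaving out the strongest hotspot of each cross, taking every autosomal CAST hotspot in place of the members, and keeping only hotspots above the CAST median.

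Coordinates are 1-based. Genes come from a RefSeq table of GRCm38.p6 (21900 protein-coding genes placed), the same primary assembly as mm10. Members named in the text were the 10 strongest, the strongest absent from each or all of the 5 crosses with CAST, the 3 present in most crosses without CAST, the strongest in a promoter window and the largest mean gain and loss. A gene is the protein-coding gene that spans the centre, otherwise the one with the nearest end. The members, the lists and these choices were made with earlier results of these data known. Python 3.11.15, NumPy 2.4.6, pandas 2.3.3, SciPy 1.17.1 and matplotlib 3.10.9 were used.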

Additional observations from a re-analysis of the deposited data

Results flagged for a closer look

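The gap between the strongest and the weakest of the 10 strength bins of members was 77.1 percentage points in PWDfXCASTm, far below the other 4 crosses with a CAST parent by Dixon's ratio, which was 0.722 for 5 lists. PWDfXCASTm had 97.9% of the strongest bin and 20.7% of the weakest. With the strongest 9000 hotspots of each cross the gap was 92.6 points there and 93.5 to 95.3 in the other 4.

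The median percentile of the members present in B6fX13Rm was 83.3, far above the other 8 crosses without CAST or PWD, at a ratio of 0.519 for 9 lists. It rests on 1 member, 358 bp from the cross hotspot. Dixon's ratio was examined in 12 groups of lists and marked 2, and chance marks about 1 group in 20.

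The X chromosome lies outside the rule for members. By the same distance rule 636 of the 775 X-linked hotspots of CAST were private. Presence of these was 45.8% in B6fXCASTm, 42.0% in C3HfXCASTm, 55.8% in CASTfXB6m, 52.0% in CASTfXMOLm and 56.0% in PWDfXCASTm, each above the level in crosses without CAST, which ran from 0% to 1.57% with a median of 0.157%. The autosomal values were 57.1%, 52.3%, 60.2%, 55.7% and 70.1% in the same order, each higher than on X. A son takes its X chromosome from its mother, which is CAST in CASTfXB6m and CASTfXMOLm alone.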

How the results depend on the processing

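Of 137 alternative values of results whose test could pass the threshold, 133 kept the direction and the side of it. The 4 that changed were all among the 14 for the members' median percentile. Another 53 belong to tests over 5 crosses, which cannot pass 0.05, and of these 50 kept the direction. Of all 190 alternative values, 91 left out a single cross, a small change of setting. The MOL and B6 tests, past the threshold in no setting, gave 23 each. The difference in the members' median percentile between crosses with and without CAST was -12.2 with any overlap, -10.7 with reciprocal overlap of 50%, -9.55 with the strongest 9000 hotspots of each cross and 6.44 in the stronger 50% of members. The percentile of CAST-private minus other-parent-private hotspots was -9.04 with reciprocal overlap of 50% and -0.581 with the strongest 9000. The cause of these changes was not tested. Presence of CAST-private minus matched CAST hotspots was 16.5 in the stronger 50% of members, a sign fixed by halving the members alone, and -2.84 with both sets above the CAST median, an alternative added after seeing the data. The strongest bin exceeded the weakest by 29.1 points in the stronger 50% of members, whose weakest bin is stronger by construction. With each cross left out in turn, the presence difference ran from 55.4 to 59.8, the strength difference from 41.1 to 42.4 and the PWD difference from 2.08 to 2.36, and these 3 stayed past the threshold. Without the strongest hotspot of each cross the strength difference was 42.1, and with every autosomal CAST hotspot in place of the members it was 51.9, both added after seeing the data. No paired analysis was possible because a pairing by replicate number needs several libraries per genotype and each has 1; the tests within crosses pair 2 sets of hotspots in the same list. Read depth is unknown, and absence from a list is absence of a called hotspot.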
